A study of Mus musculus with 8 samples.

Results

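The genes described here encode the machinery that shortens poly(A) tails, removes the cap and degrades the body of mRNAs, together with the proteins that cover the tail. They were chosen by their names in the scanner tables: every probe of a gene named Cnot, Exosc, Pabpc, Paip, Smg or Lsm with its number, and 17 single genes of deadenylation, decapping, 5′ to 3′ decay, nonsense-mediated decay and AU-rich element binding. The rule took 126 of the 41174 probes, under 60 gene names. 57 of these genes were measured well enough to be tested, among 14486 tested genes. Pabpc4l and Pabpc5 were not well above background on any array, and neither was Smgc, a gland secretory protein gene that shares only the first letters of its name with the Smg genes.

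Cytoplasmic decay of most mRNAs starts with the poly(A) tail, which is covered by poly(A)-binding protein and trimmed by the Ccr4-Not and Pan2-Pan3 deadenylases. An oligoadenylated end is then bound by the Lsm1-7 ring, the cap is removed by the Dcp2 holoenzyme and Xrn1 degrades the body from the 5′ end, while the exosome degrades from the 3′ end. Poly(A)-binding protein also binds the eIF4G scaffolds of the cap-binding complex eIF4F, which links the tail to the start of translation.

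The study used stromal cells from lymph nodes of the strain BALB/c, fibroblast-like scaffold cells that were grown in culture dishes. One group received 400 pmol of an siRNA against Eif4g3, which encodes the eIF4G scaffold called eIF4GII, and the other 400 pmol of a control siRNA. Both were transfected with Lipofectamine 2000, given new medium at 24 h and collected at 48 h. RNA came from the heavy polysome fractions of a sucrose gradient, which hold mRNAs carrying many ribosomes, or from the whole lysate, called total RNA. Each of 4 heavy polysome and 4 total RNA arrays carried Eif4g3 siRNA RNA in Cy5 and control siRNA RNA of the same fraction in Cy3. There was no dye swap, so a dye bias of a probe and a change of its transcript cannot be told apart within a fraction. There were 7 plates for each siRNA, cells were pooled for the gradients, and the labels do not say whether the 4 replicates are separate cultures. The p-values therefore measure the spread between arrays, which may be technical. The age and sex of the mice and the siRNA sequences are not given in the sources used here.

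Promoter stretches are shown for the genes whose ratio passed the test in either fraction, since these carry the results below. RefSeq promoters of GRCm38.p6 were matched by symbol for 43 of the 57 tested genes and for 5 of the 8 that passed, namely Upf1, Cnot6, Cnot6l, Lsm2 and Lsm6. Each stretch holds the 250 bases before the annotated start, 5′ to 3′ on the gene's strand, from the first start listed where there are several (2 for Lsm2 and 3 for Cnot6l). Capitals mark matches on either strand to CCAAT, to the GC box GGGCGG, to TATAAA, to the E box CACGTG and to GCATGCGC, the core of the NRF1 motif.
Upf1, chr8:70353280-70353529, minus strand: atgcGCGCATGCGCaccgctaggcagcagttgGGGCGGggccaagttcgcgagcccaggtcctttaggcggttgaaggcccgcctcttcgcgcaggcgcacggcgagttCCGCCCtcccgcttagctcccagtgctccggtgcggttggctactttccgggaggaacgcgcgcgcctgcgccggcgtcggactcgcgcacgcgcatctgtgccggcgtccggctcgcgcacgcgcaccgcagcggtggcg
Cnot6, chr11:49712723-49712972, minus strand: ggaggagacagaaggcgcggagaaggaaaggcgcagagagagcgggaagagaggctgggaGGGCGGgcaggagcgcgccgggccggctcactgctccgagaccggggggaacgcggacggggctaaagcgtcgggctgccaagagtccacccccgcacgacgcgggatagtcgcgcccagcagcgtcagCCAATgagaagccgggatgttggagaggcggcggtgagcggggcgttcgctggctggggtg
Cnot6l, chr5:96161991-96162240, minus strand: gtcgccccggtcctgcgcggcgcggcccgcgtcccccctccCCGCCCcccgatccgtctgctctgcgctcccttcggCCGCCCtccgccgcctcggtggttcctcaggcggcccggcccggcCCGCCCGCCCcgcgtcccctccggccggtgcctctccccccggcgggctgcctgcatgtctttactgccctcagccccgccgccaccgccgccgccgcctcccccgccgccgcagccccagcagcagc
Lsm2, chr17:34981604-34981853, plus strand: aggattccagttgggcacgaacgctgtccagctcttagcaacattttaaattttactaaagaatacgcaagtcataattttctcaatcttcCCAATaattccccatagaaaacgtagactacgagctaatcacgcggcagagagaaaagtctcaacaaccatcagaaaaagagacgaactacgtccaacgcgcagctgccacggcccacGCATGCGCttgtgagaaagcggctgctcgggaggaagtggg
Lsm6, chr8:78821153-78821402, minus strand: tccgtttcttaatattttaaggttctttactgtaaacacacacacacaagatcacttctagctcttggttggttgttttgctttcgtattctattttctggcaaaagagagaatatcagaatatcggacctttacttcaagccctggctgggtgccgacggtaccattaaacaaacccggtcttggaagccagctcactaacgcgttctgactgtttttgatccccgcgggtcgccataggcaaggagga
The Upf1 stretch held 2 overlapping matches to GCATGCGC and 2 to GGGCGG. The Cnot6l stretch held 4 matches to GGGCGG, of which 2 overlap. The Cnot6 stretch held 1 match each to CCAAT and GGGCGG, and the Lsm2 stretch 1 each to CCAAT and GCATGCGC. None of the searched letters occurred in the Lsm6 stretch, and TATAAA and CACGTG occurred in none of the 5. GC made up 72.8% of the Upf1 stretch, 70.8% for Cnot6, 82.4% for Cnot6l, 47.6% for Lsm2 and 44.8% for Lsm6, beside a median of 52.4% over all 32851 promoter stretches of the same length. Of the 43 members with a sequence, 14 held CCAAT (32.6%, against 33.8% of all stretches), 29 held GGGCGG (67.4%, against 32.7%), 6 held GCATGCGC (14%, against 2.26%), 2 held TATAAA (4.65%, against 12.4%) and 2 held CACGTG (4.65%, against 6.02%). The members' median GC content was 59.6%. These sets are unlike: each member gave only its first listed start, while all stretches counted every listed start and were not limited to tested genes. Shares among the tested genes were not computed. A match is a description of these letters only.

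Eif4g3 itself was measured first, as a check of the labels. On the log2 scale, its ratios between Eif4g3 siRNA and control siRNA were -3.16, -2.24, -2.43 and -2.0 in heavy polysome RNA and -2.48, -1.81, -1.94 and -2.05 in total RNA. It was thus 5.49-fold lower in heavy polysome RNA and 4.2-fold lower in total RNA (limma adjusted p = 0.00062 and adjusted p = 0.00204). Arrays of 1 fraction did not resemble each other equally. Averaged over its 3 partners in the fraction, an array's correlation across tested genes lay between 0.289 and 0.566, lowest for heavy polysome arrays 1 and 3 and total RNA array 4, and heavy polysome arrays 2 and 4 correlated at 0.883. All 7 stromal markers were above background in both channels on all 8 arrays. Of 8 macrophage markers, 5 were above background on all 8 arrays, and Adgre1, Itgam and Fcgr1 on none. None of 4 endothelial, 4 lymphocyte and 3 epithelial markers was above background in both channels on all arrays. The median ratio of the stromal list ran from -0.45 to -0.30 in heavy polysome RNA and from -0.48 to -0.03 in total RNA, but its members went opposite ways: Vim lay above 0 on all 8 arrays (0.08 to 1.22 in heavy polysome RNA and 0.40 to 1.14 in total RNA), while Col1a1 and Col1a2 lay below 0 on all 8. Over the 5 detected macrophage markers the median ran from -1.24 to -0.11 in heavy polysome RNA and from -0.77 to -0.22 in total RNA, and over all 8 from -0.50 to -0.07 and from -0.38 to -0.16. Spp1 ran from -2.66 to -0.78 in heavy polysome RNA and from -2.10 to -0.78 in total RNA, and Trem2 from -2.34 to -0.69 and from -1.71 to -0.33. Cd68 and Csf1r lay below 0 on all 8 arrays, and Lyz2 had both signs, from -0.35 to 0.37 and from -0.46 to 0.18. The part of these cell markers in the results below was not tested. In such bulk samples, fewer cells of a type and less RNA per cell cannot be told apart.

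After Eif4g3 knockdown, 7 decay genes passed the test of their ratio in heavy polysome RNA. Cnot6, Lsm6, Lsm1 and Lsm2 were higher in Eif4g3 siRNA cells, while Upf1, Cnot1 and Exosc9 were lower. These 7 were 12.3% of the 57 tested members, beside 8.88% of all 14486 tested genes that passed in heavy polysome RNA (4.86% higher and 4.02% lower). The members' median log2 ratio was 0.00, against 0.02 over all genes, and their ratios ran from -0.80 to 0.91. Calls were made at a Benjamini-Hochberg adjusted p under 0.05 in limma over all tested genes, and 14 members had an unadjusted p under 0.05, where 25.4% of all genes did. The count of 7 came to 2 without heavy polysome array 2, 2 without array 4, 4 without array 3, 3 without total RNA array 2 and 3 without total RNA array 3. With heavy polysome arrays 2 and 4, which correlated most closely, averaged as 1 sample, Cnot6 and Upf1 passed. With the authors' deposited ratios, 2 members passed higher and 4 lower, and with processed signals followed by loess, 2 higher and 3 lower. Of all genes, 14.1% passed with the deposited ratios and 14.2% with processed signals followed by loess.

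In total RNA only Cnot1 and Cnot6l passed the test, both lower in Eif4g3 siRNA cells. That is 3.51% of the members, beside 4.36% of all tested genes in total RNA (1.67% higher and 2.69% lower). The members' median log2 ratio was -0.06, against -0.04 over all genes, their range was -0.60 to 0.46, and 12 members had an unadjusted p under 0.05, where 22.1% of all genes did. Leaving out heavy polysome array 4, or total RNA array 2 or 3, left none. Leaving out heavy polysome array 2, or total RNA array 1 or 4, left 1, and 4 passed when heavy polysome array 1 was omitted. With the authors' deposited ratios, and with processed signals followed by loess, Cnot7 passed higher and Cnot1 lower. Under these settings, 10% and 10.8% of all genes passed in total RNA. Of all genes that passed in total RNA, 38.3% were higher, against 54.2% with processed signals followed by loess, 54.7% with the deposited ratios and 21.6% with each array centred on the median of the tested genes. The plot of the members by role shows the ratios on each array.

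**Figure D1:**
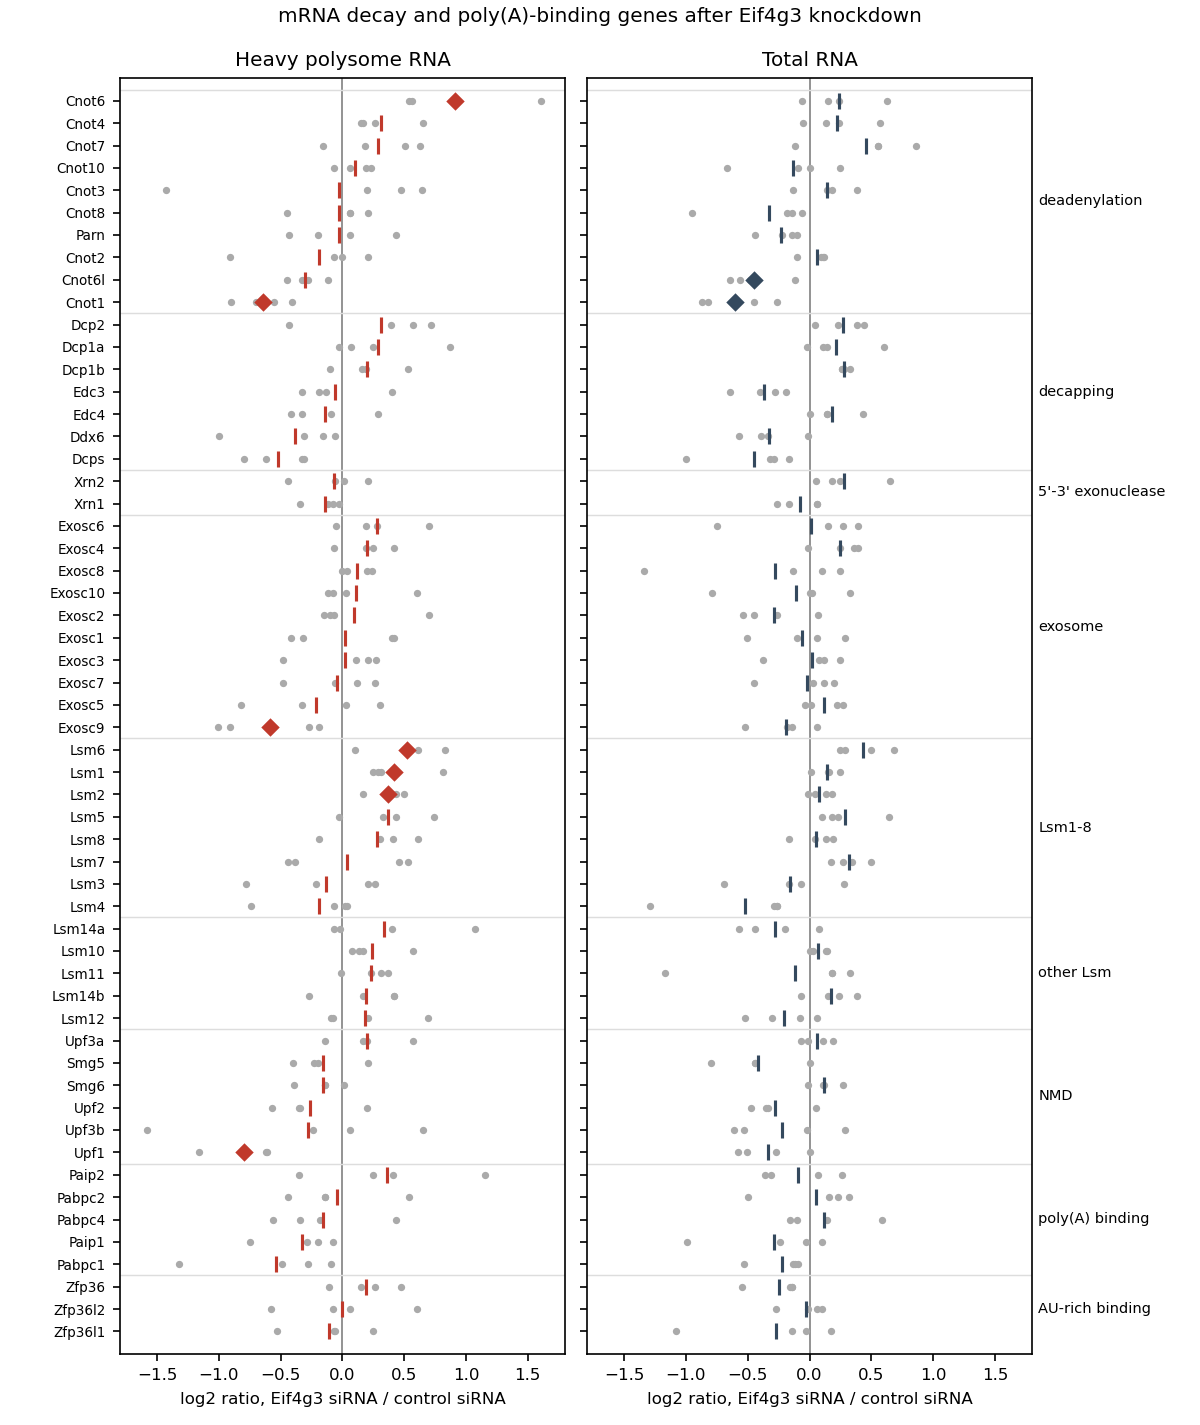
Log2 ratio of Eif4g3 siRNA over control siRNA (x axis) for 56 tested genes, grouped by role (y axis), in heavy polysome RNA on the left and total RNA on the right. Grey points are the 4 arrays of a fraction, bars are means and diamonds are means with an adjusted p under 0.05: 7 diamonds on the left and 2 on the right.

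The deadenylation genes held members with ratios in opposite directions. Of 10 tested members, Cnot6 was higher and Cnot1 lower in heavy polysome RNA of Eif4g3 siRNA cells. Cnot1 and Cnot6l were lower in total RNA. Of all tested genes, 8.88% passed in heavy polysome RNA and 4.36% in total RNA. The medians of the 10 were -0.03 in heavy polysome RNA and -0.04 in total RNA, against 0.02 and -0.04 over all genes. Cnot6 encodes a catalytic Ccr4-type deadenylase subunit. The log2 ratios were 1.61, 0.56, 0.93 and 0.54 on heavy polysome arrays 1 to 4, and 0.15, -0.06, 0.24 and 0.63 on total RNA arrays 1 to 4. All 4 heavy polysome arrays lay above 0, array 1 being the highest, whereas 1 total RNA array lay below 0. The mean was 0.91 ± 0.50 in heavy polysome RNA (SD, n = 4), a 1.88-fold higher level with an adjusted p of 0.0152, and 0.24 ± 0.29 in total RNA (adjusted p = 0.469). The probe used lies at chr11:49515071-49515130 of mm8, and a dimmer Cnot6 probe gave 0.35 ± 0.60 in heavy polysome RNA.

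Cnot1 encodes the scaffold on which the Ccr4-Not complex is built. Log2 ratios of the gene were -0.55, -0.90, -0.41 and -0.70 in heavy polysome RNA and -0.82, -0.45, -0.87 and -0.26 in total RNA. All 8 arrays lay below 0, with total RNA array 4 nearest to it. The means were -0.64 ± 0.21 in heavy polysome RNA, 1.56-fold lower with an adjusted p of 0.0150, and -0.60 ± 0.29 in total RNA, 1.52-fold lower with an adjusted p of 0.0312. The call in heavy polysome RNA ended when heavy polysome array 2 or 4 was left out. In total RNA it ended on leaving out heavy polysome array 4 or any of total RNA arrays 1 to 3. The probe lies at chr8:98608843-98608902 of mm8, and a second Cnot1 probe above background gave -0.31 ± 0.43 and -0.39 ± 0.18.

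Cnot6l encodes the paralogue of Cnot6 in the same catalytic position of the complex. Its log2 ratios were -0.12, -0.28, -0.33 and -0.45 in heavy polysome RNA and -0.12, -0.48, -0.64 and -0.56 in total RNA. All 8 arrays lay below 0 and array 1 was nearest to it in both fractions. The mean was -0.30 ± 0.14 in heavy polysome RNA, with an adjusted p of 0.111. In total RNA it was -0.45 ± 0.23, 1.36-fold lower with an adjusted p of 0.0458. Omitting heavy polysome array 2 or 4, or any of total RNA arrays 2 to 4, ended that call. It was also lost with the authors' deposited ratios, with processed signals followed by loess and with the mean of its probes. Over the 22 alternatives tried, the call was kept in 7. These include Aquantile scaling of average intensities between arrays, which leaves log ratios unchanged and so keeps every call by construction. Its probe lies at chr5:96317178-96317237 of mm8, and its other probe above background gave -0.06 ± 0.25 and -0.20 ± 0.13.

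The other 7 deadenylation members did not pass in either fraction. Cnot7 and Cnot8, which encode the Caf1-type catalytic subunits, had mean log2 ratios of 0.29 and -0.03 in heavy polysome RNA and 0.46 and -0.33 in total RNA. Cnot7 did pass in total RNA, higher, with the authors' deposited ratios and with processed signals followed by loess. Cnot2, Cnot3 and Cnot10, subunits of the non-catalytic modules, had means of -0.19, -0.03 and 0.10 in heavy polysome RNA and 0.06, 0.14 and -0.13 in total RNA. Cnot4, a ubiquitin ligase named with the complex, had 0.31 and 0.22, and Parn, a separate poly(A)-specific ribonuclease, had -0.03 and -0.23. Cnot3 ran from -1.43 to 0.64 over the 4 heavy polysome arrays, so its mean near 0 came with an SD of 0.95.

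Among the decapping and 5′ to 3′ decay genes, none of 9 tested members passed in either fraction, beside 8.88% of all tested genes in heavy polysome RNA and 4.36% in total RNA. Dcps encodes the scavenger enzyme that hydrolyses the cap left after 3′ to 5′ decay. The log2 ratios were -0.62, -0.33, -0.80 and -0.31 in heavy polysome RNA and -0.32, -0.17, -0.29 and -1.0 in total RNA, below 0 on all 8 arrays. The means of -0.52 ± 0.24 and -0.45 ± 0.37 had adjusted p-values of 0.0541 and 0.106. Dcps passed in heavy polysome RNA, lower, without total RNA array 4 (adjusted p = 0.0179) and in the authors' deposited ratios (adjusted p = 0.0491). The catalytic subunit gene Dcp2 and the cofactor genes Dcp1a and Dcp1b had means of 0.31, 0.29 and 0.20 in heavy polysome RNA and 0.27, 0.21 and 0.28 in total RNA. The decapping enhancer genes Edc3 and Edc4 had -0.06 and -0.14 in heavy polysome RNA and -0.37 and 0.18 in total RNA, and the helicase gene Ddx6 had -0.38 and -0.33. Xrn2, the nuclear 5′ to 3′ exonuclease, had log2 ratios of 0.21, -0.06, -0.44 and 0.01 in heavy polysome RNA and 0.65, 0.05, 0.25 and 0.18 in total RNA. Its means were -0.07 ± 0.27 and 0.28 ± 0.26 (adjusted p = 0.774 and adjusted p = 0.229). Xrn1, its cytoplasmic counterpart, had -0.14 ± 0.14 and -0.08 ± 0.16.

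**Figure D2:**
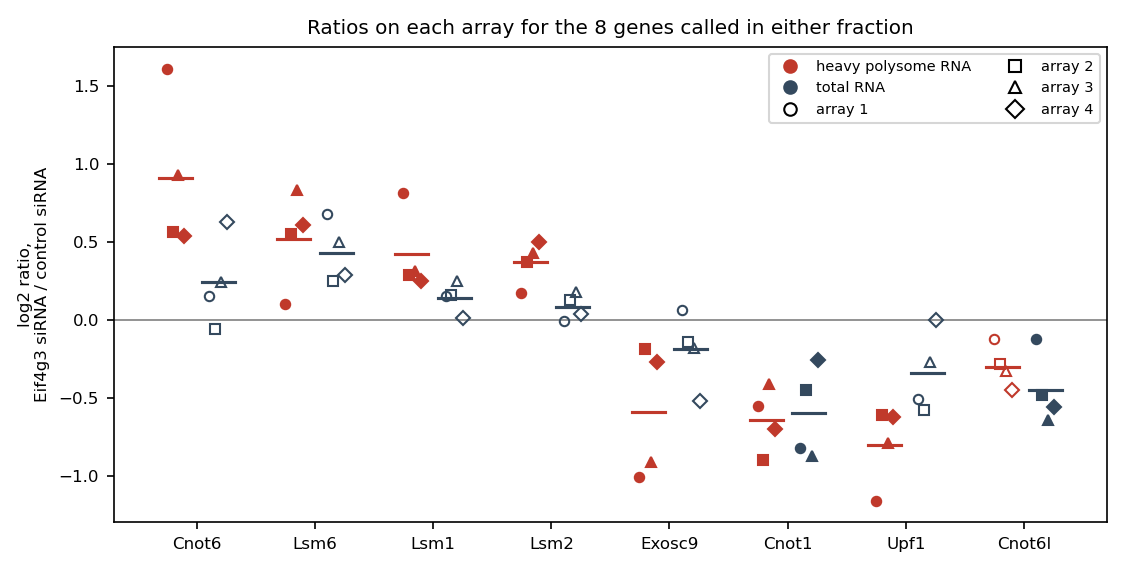
Log2 ratio of Eif4g3 siRNA over control siRNA (y axis) on each array for the 8 genes with an adjusted p under 0.05 in heavy polysome RNA (red, left of each pair) or total RNA (dark, right). Symbols mark arrays 1 to 4, lines mark means and filled symbols mark the fraction in which the gene passed. Cnot1 and Cnot6l lie below 0 on all 8 arrays and Cnot6 lies above 0 on all 4 heavy polysome arrays.

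The Sm-like proteins Lsm1 to Lsm8 form a cytoplasmic ring, which contains Lsm1 and activates decapping, and a nuclear ring, which contains Lsm8 and binds U6 snRNA; the other 6 are shared by both. Of the 8 genes, 3 were higher in heavy polysome RNA of Eif4g3 siRNA cells and none lower, and none passed in total RNA, beside 4.86% of all genes higher and 4.02% lower in heavy polysome RNA. The 3 calls depended on the scaling: of these genes, Lsm2 alone passed with processed signals followed by loess and with the authors' deposited table, and none of the 3 passed with either median centring. The median log2 ratio of the 8 was 0.33 in heavy polysome RNA (6 of 8 above 0) and 0.11 in total RNA (6 of 8 above 0), against 0.02 and -0.04 over all genes. The heavy polysome median was 0.29 to 0.33 under the other scalings of the ratios that were tried, with 6 of 8 above 0 in each. Among these, Aquantile scaling of average intensities leaves log ratios unchanged and so repeats the main value. In total RNA the median of the 8 turned to -0.05 with arrays centred on the tested genes and to -0.78 with arrays centred on all spots, where the median of all genes was also -0.78. On single heavy polysome arrays the median of the 8 was 0.04, 0.35, 0.06 and 0.37, so arrays 2 and 4 stood above arrays 1 and 3.

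Lsm6, shared by both rings, had log2 ratios of 0.10, 0.55, 0.83 and 0.61 in heavy polysome RNA and 0.68, 0.25, 0.50 and 0.29 in total RNA. It was above 0 on all 8 arrays, and its lowest heavy polysome value and its highest total RNA value were both on array 1. The means were 0.52 ± 0.31 in heavy polysome RNA, 1.44-fold higher with an adjusted p of 0.0324, and 0.43 ± 0.20 in total RNA (adjusted p = 0.0850). Omitting any of heavy polysome arrays 2 to 4, or total RNA array 2 or 3, ended the heavy polysome call, and Lsm6 passed in total RNA without heavy polysome array 1 (adjusted p = 0.0349). Its probe lies at chr8:81704216-81704275 of mm8, and its other 3 probes above background gave 0.17 to 0.47 in heavy polysome RNA and -0.07 to 0.30 in total RNA.

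Lsm1 is the subunit that sets the cytoplasmic ring apart. Log2 ratios of the gene were 0.81, 0.29, 0.31 and 0.25 in heavy polysome RNA and 0.15, 0.16, 0.25 and 0.01 in total RNA, above 0 on all 8 arrays. The means were 0.42 ± 0.26, 1.33-fold higher with an adjusted p of 0.0415, and 0.14 ± 0.10 (adjusted p = 0.485). The call in heavy polysome RNA held without total RNA array 4 and was lost when any of the other 7 arrays was left out, with adjusted p-values up to 0.093. Lsm1 had 1 probe, at chr8:27267719-27267778 of mm8.

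Lsm2, a subunit of both rings, had log2 ratios of 0.17, 0.37, 0.43 and 0.50 in heavy polysome RNA and -0.01, 0.13, 0.18 and 0.04 in total RNA. The fractions overlapped only at heavy polysome array 1. The means were 0.37 ± 0.14, 1.29-fold higher with an adjusted p of 0.0295, and 0.08 ± 0.09 (adjusted p = 0.622). The same 5 omissions ended the call. Its probe lies at chr17:34590678-34590737 of mm8, and its other probe gave 0.29 ± 0.15 and 0.15 ± 0.08.

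The remaining ring genes were not called. Lsm5 and Lsm8 had means of 0.37 and 0.28 in heavy polysome RNA and 0.29 and 0.05 in total RNA, and Lsm3 had -0.13 and -0.16. Lsm7 had log2 ratios of -0.38, 0.53, -0.44 and 0.46 in heavy polysome RNA and 0.50, 0.34, 0.27 and 0.17 in total RNA, with means of 0.04 ± 0.53 and 0.32 ± 0.14 (adjusted p = 0.901 and adjusted p = 0.3). Heavy polysome arrays 1 and 3 were low for Lsm7 and arrays 2 and 4 high. Lsm4 had -0.07, 0.02, -0.74 and 0.04 in heavy polysome RNA and -0.29, -0.26, -0.26 and -1.29 in total RNA, with means of -0.19 ± 0.37 and -0.52 ± 0.51 (adjusted p = 0.583 and adjusted p = 0.145). Its low values stood on heavy polysome array 3 and total RNA array 4.

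Of the 5 other Lsm genes, none passed in either fraction, beside 8.88% of all genes in heavy polysome RNA and 4.36% in total RNA. All 5 had a mean above 0 in heavy polysome RNA, from 0.18 to 0.34, and 2 of 5 in total RNA. Over all genes the medians were 0.02 and -0.04. Lsm10, which with Lsm11 replaces a pair of Sm proteins in the U7 snRNP that processes histone mRNA ends, had log2 ratios of 0.08, 0.17, 0.57 and 0.13 in heavy polysome RNA and 0.03, 0.14, 0.13 and 0.00 in total RNA. Its means were 0.24 ± 0.23 and 0.07 ± 0.07 (adjusted p = 0.168 and adjusted p = 0.716). Lsm14a, a P-body protein that binds Ddx6, had 1.07, -0.02, 0.40 and -0.07 in heavy polysome RNA and -0.44, -0.20, -0.57 and 0.08 in total RNA. Its means were 0.34 ± 0.53 and -0.28 ± 0.29 (adjusted p = 0.276 and adjusted p = 0.403), with heavy polysome array 1 far above the other 3. Lsm11, Lsm12 and Lsm14b had 0.23, 0.18 and 0.19 in heavy polysome RNA and -0.12, -0.21 and 0.17 in total RNA.

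**Figure D3:**
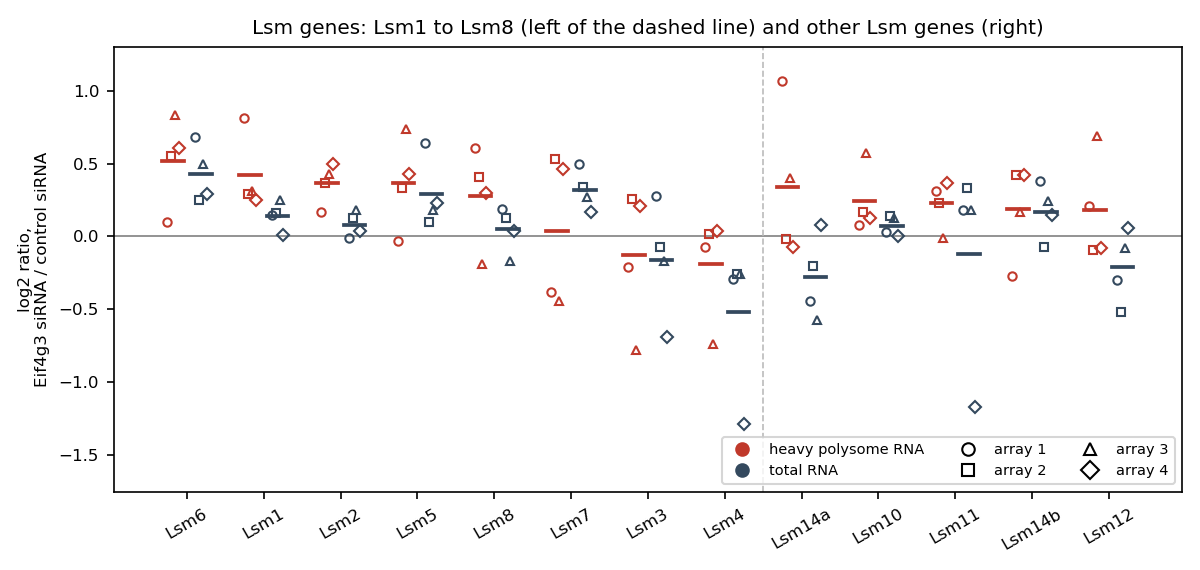
Log2 ratio of Eif4g3 siRNA over control siRNA (y axis) on each array for 13 Lsm genes, in heavy polysome RNA (red, left of each pair) and total RNA (dark, right). Symbols mark arrays 1 to 4 and lines mark means. In heavy polysome RNA the means of 6 of the 8 ring genes and of all 5 other Lsm genes lie above 0.

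Of the exosome genes, 1 of 10 members was lower in heavy polysome RNA, beside 4.02% of all genes, and none was called in total RNA. Their medians were 0.06 and -0.04, against 0.02 and -0.04 over all genes. Exosc9 encodes a subunit of the ring through which RNA is threaded. Its log2 ratios were -1.01, -0.19, -0.91 and -0.27 in heavy polysome RNA and 0.06, -0.14, -0.18 and -0.52 in total RNA. All 4 heavy polysome arrays lay below 0, arrays 1 and 3 much lower than arrays 2 and 4. The means were -0.59 ± 0.42, 1.51-fold lower with an adjusted p of 0.0437, and -0.19 ± 0.24 (adjusted p = 0.509). The call held without total RNA array 4 and was lost when any of the other 7 arrays was left out, with adjusted p-values up to 0.123. The probe lies at chr3:36756799-36756990 of mm8 and was the only Exosc9 probe above background.

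Exosc6, another ring subunit, had log2 ratios of 0.28, -0.05, 0.70 and 0.19 in heavy polysome RNA and -0.75, 0.27, 0.15 and 0.39 in total RNA, with means of 0.28 ± 0.32 and 0.01 ± 0.52 (adjusted p = 0.381 and adjusted p = 0.979). The ring genes Exosc4, Exosc5, Exosc7 and Exosc8 had means of 0.20, -0.21, -0.04 and 0.12 in heavy polysome RNA and 0.25, 0.12, -0.02 and -0.28 in total RNA. The cap subunit genes Exosc1, Exosc2 and Exosc3 had 0.02, 0.09 and 0.02 in heavy polysome RNA and -0.06, -0.29 and 0.02 in total RNA, and Exosc10, a catalytic subunit of the nuclear exosome, had 0.11 and -0.11. None of these 9 passed in either fraction.

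Among 7 nonsense-mediated decay genes, Upf1 was lower in heavy polysome RNA of Eif4g3 siRNA cells and no other member passed. Of all tested genes, 4.02% passed lower in heavy polysome RNA. The medians of the 7 were -0.26 in heavy polysome RNA (1 of 7 above 0) and -0.28 in total RNA (2 of 7 above 0). Over all genes these medians were 0.02 and -0.04. Upf1 encodes the helicase at the centre of the pathway. The log2 ratios were -1.16, -0.61, -0.79 and -0.62 in heavy polysome RNA and -0.51, -0.58, -0.27 and 0.00 in total RNA. Every heavy polysome value lay below every total RNA value. The mean of -0.80 ± 0.25 in heavy polysome RNA was 1.74-fold lower with an adjusted p of 0.00694, the lowest among the members, and the mean in total RNA was -0.34 ± 0.26 (adjusted p = 0.148). The heavy polysome call held when each of the 8 arrays was left out, with adjusted p-values up to 0.0327. Upf1 had 1 probe, at chr8:73260722-73260781 of mm8.

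Smg5, which promotes the dephosphorylation of Upf1, and Smg6, an endonuclease, had -0.16 and -0.16 in heavy polysome RNA and -0.42 and 0.12 in total RNA. Upf2 and Upf3b, which join Upf1 to the exon junction complex, had -0.26 and -0.28 in heavy polysome RNA and -0.28 and -0.22 in total RNA. Upf3a, a paralogue of Upf3b, had 0.57, 0.20, -0.14 and 0.17 in heavy polysome RNA and 0.11, -0.07, -0.01 and 0.19 in total RNA, with means of 0.20 ± 0.29 and 0.06 ± 0.12 (adjusted p = 0.302 and adjusted p = 0.827).

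No poly(A)-binding gene, of 5 tested, passed the test of its ratio in either fraction, beside 8.88% of all genes in heavy polysome RNA and 4.36% in total RNA. Pabpc1, the main cytoplasmic poly(A)-binding protein, had log2 ratios of -1.32, -0.28, -0.09 and -0.49 in heavy polysome RNA and -0.53, -0.09, -0.12 and -0.13 in total RNA. All 8 arrays lay below 0, and array 1 was the lowest in both fractions. The means were -0.54 ± 0.54 and -0.22 ± 0.21 (adjusted p = 0.0917 and adjusted p = 0.520). Pabpc4, the inducible poly(A)-binding protein, had means of -0.16 and 0.12, and Pabpc2, an intronless relative of Pabpc1, had -0.04 and 0.05. Cross-hybridisation between these related transcripts was not tested. Paip1, which binds Pabpc1 and stimulates translation, had -0.33 and -0.29, and Paip2, which displaces Pabpc1 from the tail, had 0.36 and -0.09, with a range of -0.35 to 1.15 in heavy polysome RNA.

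The AU-rich element binding genes also gave no call. Zfp36l1, which recruits deadenylases to AU-rich mRNAs, had log2 ratios of 0.25, -0.07, -0.53 and -0.06 in heavy polysome RNA and 0.17, -0.14, -0.03 and -1.08 in total RNA, with means of -0.11 ± 0.32 and -0.27 ± 0.55 (adjusted p = 0.776 and adjusted p = 0.458). Its relatives Zfp36 and Zfp36l2 had 0.19 and 0.00 in heavy polysome RNA and -0.25 and -0.03 in total RNA. Of 15 tested transcripts from a list of those that Zfp36 proteins are known to bind, none passed in heavy polysome RNA, while Ccnd1, which encodes cyclin D1, passed lower in total RNA (-0.55 ± 0.12, adjusted p = 0.0497). These are 0% and 6.67% of the 15, beside 8.88% and 4.36% of all genes.

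The ratio in heavy polysome RNA was then set against the ratio in total RNA, which asks whether polysome loading moved apart from transcript amount. No member passed in this difference, 0 of 57, and no gene did, 0% of 14486, in limma with adjustment over all genes. At an unadjusted p under 0.05 there were 5 members and 5.22% of all genes. The median difference was 0.08 over the members and 0.06 over all genes. Cnot6 had the largest difference, 0.67 (95% interval 0.11 to 1.23), followed by Lsm14a at 0.63 (0.05 to 1.21) and Upf1 at -0.46 (-0.85 to -0.06). Zfp36 at 0.44 and Lsm2 at 0.28, named after their values were seen, were the other 2, and the adjusted p was 0.846 for each of the 5. For Cnot1, called in both fractions, the difference was -0.04 (-0.43 to 0.35), and for Lsm6 it was 0.10 (-0.30 to 0.49). Hence the 7 calls in heavy polysome RNA are not shown to differ from the ratios of the same genes in total RNA.

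Levels in heavy polysome RNA were also compared with levels in total RNA within each kind of cell, using the single channels after normalisation between arrays. Equal RNA mass was labelled, so these differences are relative to the other transcripts of a sample. In Eif4g3 siRNA cells no member passed, beside 0.152% of all genes, and 19 members had an unadjusted p under 0.05, where 12.4% of all genes did. In control siRNA cells 2 members passed, both lower in heavy polysome RNA, beside 2.22% of all genes (0.0138% higher and 2.2% lower). They were Lsm1 and Pabpc4, whose levels were singled out after they were seen. Without heavy polysome array 2, 3 or 4 no member passed in control siRNA cells. Without heavy polysome array 1 or total RNA array 3 only Pabpc4 did, without total RNA array 2 only Pabpc2, and without total RNA array 4 only Cnot7. Without total RNA array 1, Lsm1, Lsm3 and Lsm5 passed in control siRNA cells, and Pabpc1 in Eif4g3 siRNA cells (adjusted p = 0.0331). With the 75th percentile scaling none passed, and with quantile scaling only Lsm1.

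The Lsm ring genes and the poly(A)-binding genes were the roles with the lowest median level in heavy polysome RNA relative to total RNA. For Lsm1 to Lsm8, the median log2 level in heavy polysome minus total RNA was -0.76 in Eif4g3 siRNA cells (7 of 8 below 0) and -0.72 in control siRNA cells (8 of 8), against 0.02 and -0.02 over all genes. For the 5 poly(A)-binding genes it was -1.01 (4 of 5 below 0) and -0.68 (3 of 5). With the single channels quantile normalised instead, the Lsm medians were -0.77 and -0.69 and the poly(A)-binding medians -1.02 and -0.73. With the 75th percentile of the processed signal subtracted they were -1.01 and -0.99 for the Lsm genes and -1.34 and -1.02 for the poly(A)-binding genes. Beside this, the nonsense-mediated decay genes had medians of 0.29 and 0.18.

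Lsm1 had log2 levels of 12.06, 11.67, 12.04 and 11.80 in heavy polysome RNA and 12.24, 12.82, 12.71 and 12.55 in total RNA of Eif4g3 siRNA cells. In control siRNA cells they were 11.26, 11.38, 11.73 and 11.55 in heavy polysome RNA and 12.09, 12.66, 12.46 and 12.54 in total RNA. The fractions did not overlap in either kind of cell. The difference was -0.68 in Eif4g3 siRNA cells (adjusted p = 0.205) and -0.96 in control siRNA cells, where it was 1.95-fold lower with an adjusted p of 0.0254.

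Pabpc1 had log2 levels of 13.78, 13.79, 13.59 and 13.53 in heavy polysome RNA and 14, 15.13, 14.86 and 14.73 in total RNA of Eif4g3 siRNA cells. In control siRNA cells they were 15.09, 14.07, 13.68 and 14.02 in heavy polysome RNA and 14.53, 15.22, 14.98 and 14.86 in total RNA. Its fractions were separate in Eif4g3 siRNA cells and overlapped in control siRNA cells, where heavy polysome array 1 was high. The difference was -1.01 (adjusted p = 0.160) and -0.68 (adjusted p = 0.382). Pabpc1 mRNA carries a terminal oligopyrimidine tract at its 5′ end, a feature of mRNAs whose translation depends on growth signals.

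Pabpc4 had log2 levels of 10.97, 11.17, 11.58 and 11.01 in heavy polysome RNA and 12.92, 12.34, 12.11 and 11.98 in total RNA of Eif4g3 siRNA cells, and 11.53, 11.51, 11.14 and 11.19 in heavy polysome RNA and 12.33, 12.44, 11.97 and 12.14 in total RNA of control siRNA cells. The fractions did not overlap in either. The difference was -1.16 (adjusted p = 0.113) and -0.88 (adjusted p = 0.0302), or 2.23-fold and 1.83-fold lower in heavy polysome RNA.

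The members at the 2 ends of the order in control siRNA cells did not pass in either kind of cell. At the low end were Pabpc2 with -1.98 in Eif4g3 siRNA cells and -1.88 in control siRNA cells, Lsm5 with -1.22 and -1.30, Dcp2 with -1.01 and -1.05, and Cnot7 with -1.21 and -1.04. For Pabpc2 the total RNA values spread from 7.67 to 11.35 in Eif4g3 siRNA cells and from 8.17 to 11.12 in control siRNA cells, with array 2 far above the others. Total RNA array 2 was the only array with its scan date and extraction protocol, and their part in this spread was not tested. Leaving out total RNA array 2 gave -1.22 for Pabpc2 in control siRNA cells, with an adjusted p of 0.0243. Lsm5 in control siRNA cells had an adjusted p of 0.0873, and of 0.0117 without total RNA array 1, and Cnot7 had 0.197, and 0.0496 without total RNA array 4. Towards the high end were Dcps with 0.45 in Eif4g3 siRNA cells and 0.52 in control siRNA cells, Exosc8 with 0.88 and 0.48, and Parn with 0.66 and 0.47, with fractions overlapping in both kinds of cell.

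**Figure D4:**
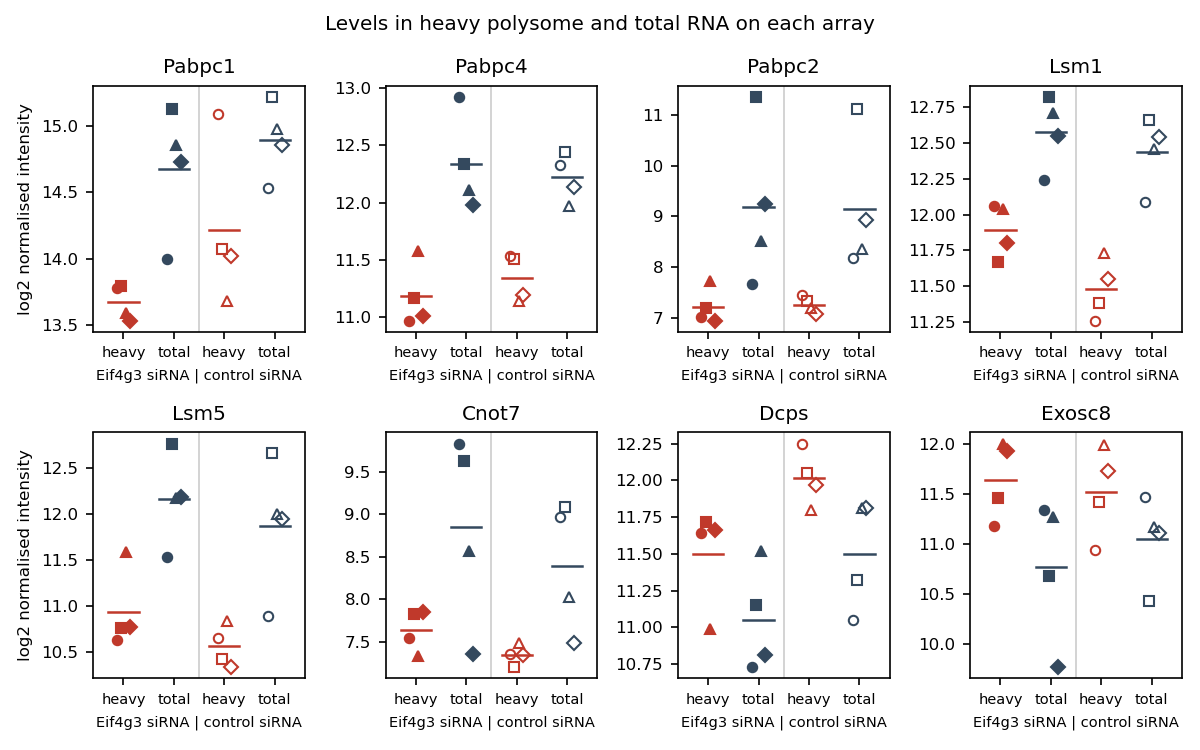
Log2 normalised intensity (y axis) of 8 genes on each array, in Eif4g3 siRNA cells (filled, left of the vertical line) and control siRNA cells (open, right), in heavy polysome RNA (red) and total RNA (dark). Symbols mark arrays 1 to 4 as circle, square, triangle and diamond, and lines mark means. Lsm1 and Pabpc4 show no overlap between fractions in either kind of cell, and Pabpc2 has a single high total RNA array.

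**Figure D5:**
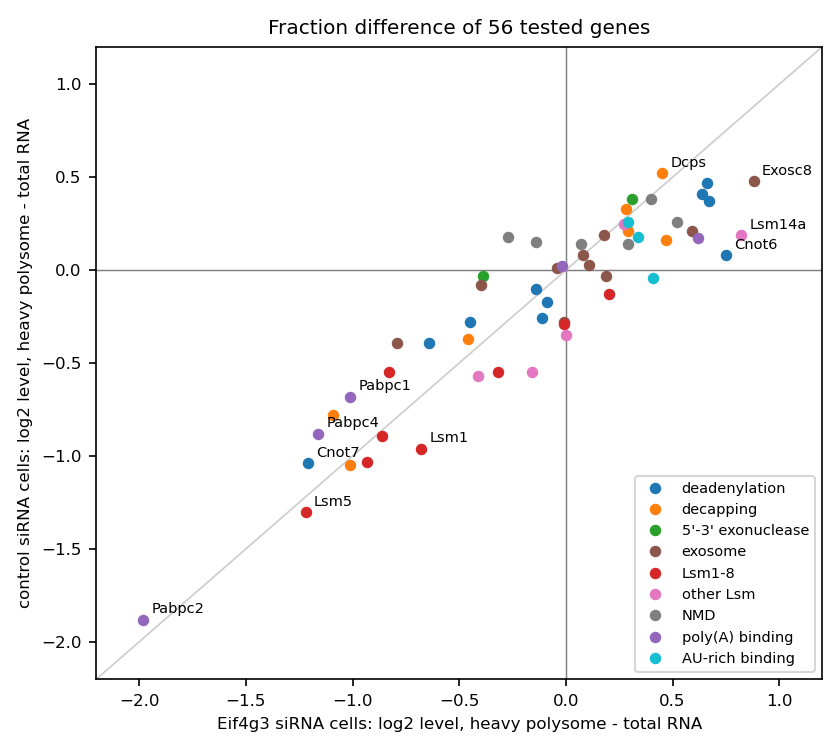
Log2 level in heavy polysome minus total RNA of 56 tested genes, in Eif4g3 siRNA cells (x axis) and control siRNA cells (y axis), coloured by role, with a line of equality. Both axes come from the same arrays. All 8 Lsm ring genes lie below 0 on the control siRNA axis and 7 of 8 on the Eif4g3 siRNA axis.

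Other genes of these pathways were taken from lists of 84 decay, tail and unstable-mRNA factors, of which 72 were tested. Of these, 4 passed higher and 3 lower in heavy polysome RNA, and 1 higher and 3 lower in total RNA, with medians of 0.00 and -0.11. These calls were 9.72% of the 72 in heavy polysome RNA, beside 8.88% of all genes, and 5.56% in total RNA, beside 4.36%, so both shares were near those of all genes. Tia1, which binds U-rich sequences and represses translation, was higher in both fractions (0.78 ± 0.24 in heavy polysome RNA and 0.69 ± 0.23 in total RNA, adjusted p = 0.00611 and adjusted p = 0.0171). Papola, the main poly(A) polymerase, was higher in heavy polysome RNA (0.55 ± 0.22, adjusted p = 0.0193), as was Tent4a, a noncanonical poly(A) polymerase (0.63 ± 0.33, adjusted p = 0.0284). Casc3, a core protein of the exon junction complex, was higher there too (0.37 ± 0.10, adjusted p = 0.0378).

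Zcchc8, the scaffold of the nuclear exosome targeting complex, was lower in both fractions (-0.62 ± 0.17 and -0.43 ± 0.09, adjusted p = 0.00558 and adjusted p = 0.0342), and Mtrex, the helicase that feeds RNA to the exosome, was lower in heavy polysome RNA (-0.56 ± 0.22, adjusted p = 0.00942). Rbm7, the third subunit of that complex, did not pass, with means of 0.40 ± 0.80 in heavy polysome RNA and -0.22 ± 0.21 in total RNA (adjusted p = 0.339 and adjusted p = 0.644). Btg2, an antiproliferative protein that binds Caf1-type deadenylases, was lower in both fractions (-0.71 ± 0.35 and -0.87 ± 0.44, adjusted p = 0.0334 and adjusted p = 0.0279). Tnrc6c, which links Argonaute to deadenylases, was lower in total RNA (-0.52 ± 0.34, adjusted p = 0.0434). Btg2 and Zcchc8 lay below 0 on all 8 arrays and Tia1 above 0 on all 8. None of the 72 passed in the difference between fractions.

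Different probes of a gene did not always agree. Of 126 member probes, 99 passed the filter on dim probes, and 28 members had 2 or more of them. The probes of a gene had mean ratios of the same sign for 19 of the 28 in heavy polysome RNA and 14 of the 28 in total RNA, and the median range between probes of a gene was 0.18 and 0.23. All passing probes of Cnot1, Cnot6, Lsm2 and Lsm6 had the direction of the call in heavy polysome RNA, and those of Cnot1 and Cnot6l that of the call in total RNA. Upf1 and Lsm1 had a single probe.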

How the data were processed

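RNA of cultured lymph node stromal cells was hybridised to 8 Agilent 2-colour arrays, 4 of heavy polysome RNA and 4 of total RNA, with Eif4g3 siRNA in Cy5 and control siRNA in Cy3. Per the submitters' processing notes, images were read with Agilent Feature Extraction, and per the file headers its version was 10.7.3.1 on 7 arrays and 10.5.1.1 on total RNA array 2. That array also had another scan date and another extraction protocol than the other 7. The deposited scanner tables give each spot's mean and background intensity on a linear scale, and the log10 ratio of red over green that the scanner software computed, per the file headers. The authors' deposited table of processed values lies on a log2 scale. It was compared with the log2 ratio of the scanner's processed red over processed green signals. On each array, 99.8 to 99.9% of its values lay within 0.01 of that ratio, so its direction is Cy5 over Cy3. Its array medians ran from -0.21 to 0.30, so it is not centred further.

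Intensities were corrected with normexp (offset 50) and loess (span 0.3) in limma 3.58.1 under R 4.3.3, with control and flagged spots given no weight. Spots of a probe were averaged, and the brightest probe stood for a gene. A gene was tested if at least 3 of the 4 arrays of either fraction showed it well above background in a channel. limma fitted 1 coefficient per fraction and their difference, adjusted over all 14486 genes at 0.05. Levels between fractions used the single channels after Aquantile normalisation. There are no read counts, so the number of arrays limits the precision. The 5 slides each held 1 fraction, so slide and fraction cannot be told apart. The scripts were tested on simulated data.

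Members and gene lists were chosen with earlier results of these data known. Members named with every array were those that passed, the 3 largest mean ratios in each comparison and the brightest of each role. For levels, the 4 highest and 4 lowest members and Pabpc1 were named, and of the other pathway genes those that passed. Rbm7, which did not pass, was named outside this rule. The values of 1 member are not reported here. Replicate numbers were checked as pairs: heavy polysome and total RNA arrays of the same number correlated at -0.02, 0.17, -0.11 and -0.30 in their deviations, so they were not treated as pairs. Alternatives covered background, scaling, filters, probe choice, blocks and single arrays left out. Probe coordinates are those of the scanner tables (mm8), and promoters are RefSeq GRCm38.p6; the exon or UTR under each probe was not analysed here.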

Additional observations from a re-analysis of the deposited data

Results flagged for a closer look

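Of 74 groups of 4 arrays examined for named members, 38 of ratios and 36 of levels, 7 held an array far from the other 3 by Dixon's criterion (the gap to the nearest array over the whole range). Chance alone flags about 1 in 20 such groups. Lsm1 had a log2 ratio of 0.81 on heavy polysome array 1, where the others lay between 0.25 and 0.31. Lsm4 had -0.74 on heavy polysome array 3, with the others between -0.07 and 0.04, and -1.29 on total RNA array 4, with the others between -0.29 and -0.26. Pabpc1 had -0.53 on total RNA array 1, with the others between -0.13 and -0.09. Among levels in Eif4g3 siRNA cells, Lsm5 stood at 11.59 on heavy polysome array 3 (others 10.63 to 10.78), Dcps at 10.99 on heavy polysome array 3 (others 11.64 to 11.72) and Dcp2 at 9.38 on total RNA array 2 (others 8.33 to 8.41). Heavy polysome arrays 1 and 3 and total RNA array 4 had the lowest correlations with their fraction (0.289, 0.318 and 0.327); their part in these values was not tested.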

How the results depend on the processing

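The difference between fractions gave 0 calls among the members under every alternative run, with the replicate number as a fixed or a random block included. With the replicate block as a random effect (correlation -0.07), the same 7 members passed in heavy polysome RNA and the same 2 in total RNA as without it, while calls over all genes came to 1278 and 634, against 1287 and 632 without it. The block was not run on the levels. No ratio or level of a named member changed sign in a way that reversed a call: of the single-gene results, 1461 kept their side of the threshold, 101 lost it and 22 gained it. The 1461 include ratios under Aquantile scaling, which leaves log ratios unchanged and so could not move any of them. The 7 members in heavy polysome RNA became 0 with median centring on all spots, which moved the all-gene median in total RNA to -0.78, 1 with centring on the tested genes, 2 with the fraction's 4 arrays alone, 4 with a fold of at least 1.5 and 2 with heavy polysome arrays 2 and 4 averaged; leaving out single arrays gave 2 to 8. The 2 members in total RNA became 0 with centring on all spots or on the tested genes, with the 4 arrays alone, with an intensity trend and with arrays 2 and 4 averaged, 1 without the dim filter, with both channels above background, with the mean of probes and with the fold limit, and 4 with slide as a random block (correlation -0.27); leaving out single arrays gave 0 to 4. In levels, the 2 members of control siRNA cells became 1 with quantile and 0 with 75th percentile scaling, and 0 to 3 without single arrays, and the 0 of Eif4g3 siRNA cells became 0 to 1. Without the 3 arrays of lowest correlation, an alternative chosen after seeing the data, 12 members passed in heavy polysome RNA, 16 in total RNA and 0 in control siRNA levels. Over all genes, 1287 calls in heavy polysome RNA became 2062 with processed signals, 2046 with the deposited ratios, 2594 with the slide block, 2205 at an adjusted p under 0.1, 678 with the fold limit, 429 with arrays 2 and 4 averaged, 378 with the 4 arrays alone, 196 with centring on tested genes, 0 with centring on all spots and 2364 without the 3 arrays; without single arrays they ran from 337 to 1527. The 632 calls in total RNA became 1564, 1452, 1474, 1443, 408 and 296 under the first 6 of these, 208 and 0 under the 2 centrings, 0 with the intensity trend and 3155 without the 3 arrays, and 51 to 1306 without single arrays. The share of higher calls in heavy polysome RNA was 54.7%, and 43.9% with centring on the tested genes. The 321 level calls of control siRNA cells became 67 to 347 without single arrays. The cause of these changes was not tested.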

Other observations

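A pair of probes was named Paip2b, a relative of Paip2, on total RNA array 2 and BC017133 on the other arrays, so they were not counted as members. Their mean log2 ratios were 0.36 ± 0.41 and 0.04 ± 0.15 in heavy polysome RNA and -0.14 ± 0.13 and 0.10 ± 0.07 in total RNA (SD, n = 4).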
